A study of Mus musculus with 6 samples.

Results

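The genes described here are the 10 that make and use small guide RNAs in mouse cells, namely the Argonautes Ago1, Ago2, Ago3 and Ago4, the nucleases Drosha and Dicer1, their double-stranded RNA-binding partners Dgcr8, Tarbp2 and Prkra, and the export receptor Xpo5. They were chosen by name, 10 of the 38481 genes with a row in the count files, and 8 of them had enough counts for the test. RNA sequencing compared 3 libraries of Hepa1-6 cells, a mouse hepatoma line, given siRNA against Renilla luciferase (Luc siRNA, a control sequence absent from mouse) with 3 libraries of the same line given siRNA against Crebl2, whose product is a leucine zipper protein resembling CREB transcription factors. Both groups received an siRNA with the reagent Lipofectamine RNAiMAX for 3 days, in medium of 4.5 g/L glucose with serum at 10%, so no library shows these genes in cells without siRNA. Separate cultures are not stated in the labels, and p-values therefore measure only the spread between these libraries, which may be technical.

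MicroRNAs are cut from hairpins in nuclear transcripts by Drosha with its partner Dgcr8, carried to the cytoplasm by Xpo5 and cut again by Dicer1, which works with Tarbp2 or Prkra. The short duplex is loaded into an Argonaute, which keeps 1 strand as a guide. A transfected siRNA enters this path at the Argonaute step and uses the same proteins. Ago2 is the main Argonaute of mammals that cuts a fully paired target, and the others act mainly through GW182 proteins, which recruit the enzymes that shorten and decap the bound mRNA.

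Libraries held between 27082572 and 29158489 counts. Crebl2 itself had 3041 to 3248 counts in the Luc siRNA libraries and 813 to 896 in the Crebl2 siRNA libraries, a change of -1.90 on the log2 scale (SE 0.0582, edgeR adjusted p = 2.83e-12). Mitochondrial genes took 0.859% of counts in Crebl2 siRNA replicate 2 and 2.09 to 2.52% in the other 5 libraries. Of 12 hepatocyte markers 4 had a mean of at least 1 CPM (counts scaled to a common library size) in the Luc siRNA libraries, led by albumin (581 CPM) and alpha-fetoprotein (Afp, 278 CPM), whereas Ttr, Apoa1, Apob and Apoh were each under 1 CPM. The 4 endothelial markers together stayed at or under 0.144 CPM in each library, and of 6 leukocyte markers Lyz2 alone passed 1 CPM, at 1.47 CPM in Luc siRNA and 0.815 CPM in Crebl2 siRNA libraries. The summed leukocyte markers were at 1.96 to 2.37 and 1.48 to 1.86 CPM, with Ptprc and Cd3e at 0 in the Luc siRNA libraries. Of 7 fibroblast markers Dcn (171 CPM) and Col1a1 (8.86 CPM) passed 1 CPM, Col3a1 and Pdgfrb had no count in any library, and the summed level was 176 to 182 CPM in Luc siRNA and 119 to 131 CPM in Crebl2 siRNA libraries. The part of these marker differences in the results below was not tested.

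The deposited counts are per transcript, and rows without a unique exonic base had 0.0235% of them, so reads shared between transcripts appear to be left out and members with overlapping rows had few counts. Ago1, Ago2, Ago3, Ago4, Dicer1, Xpo5 and Prkra each had 1 row, a protein-coding mRNA whose bases were all, or in Ago2 13581 of 13800, its own. The nuclear pair was not measurable. Drosha, with 2 overlapping mRNA rows that have 53 unique bases between them, had no count in the Luc siRNA libraries and 3 in the Crebl2 siRNA libraries. Dgcr8 had 12 and 9 counts, all on a retained-intron transcript rather than on its mRNA, for a ratio of 0.751 (95% exact binomial interval 0.279 to 1.94). Counts this low say nothing about the level of either mRNA.

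Of the 10 members 4 rose (Ago3, Ago4, Dicer1 and Xpo5) and 2 fell (Ago1 and Prkra) at an edgeR adjusted p under 0.05. Over all 11616 genes tested the same test called 18.8% higher and 20.1% lower. With library size alone as the scaling 5 members rose and 1 fell, and 23.6% of all genes tested were called higher and 16.5% lower. Ago2 and Tarbp2 did not pass. The changes were small, from a log2 fold change of -0.33 in Prkra to 0.42 in Ago3, where the median size over all called genes was 0.38. The tested members had a median of 0.28, against 0.01 for all genes tested. In 5 members the 3 Crebl2 siRNA libraries did not overlap the 3 Luc siRNA libraries, which held for 48.8% of all genes tested. The plot of CPM by library shows the values behind these calls.

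**Figure D1:**
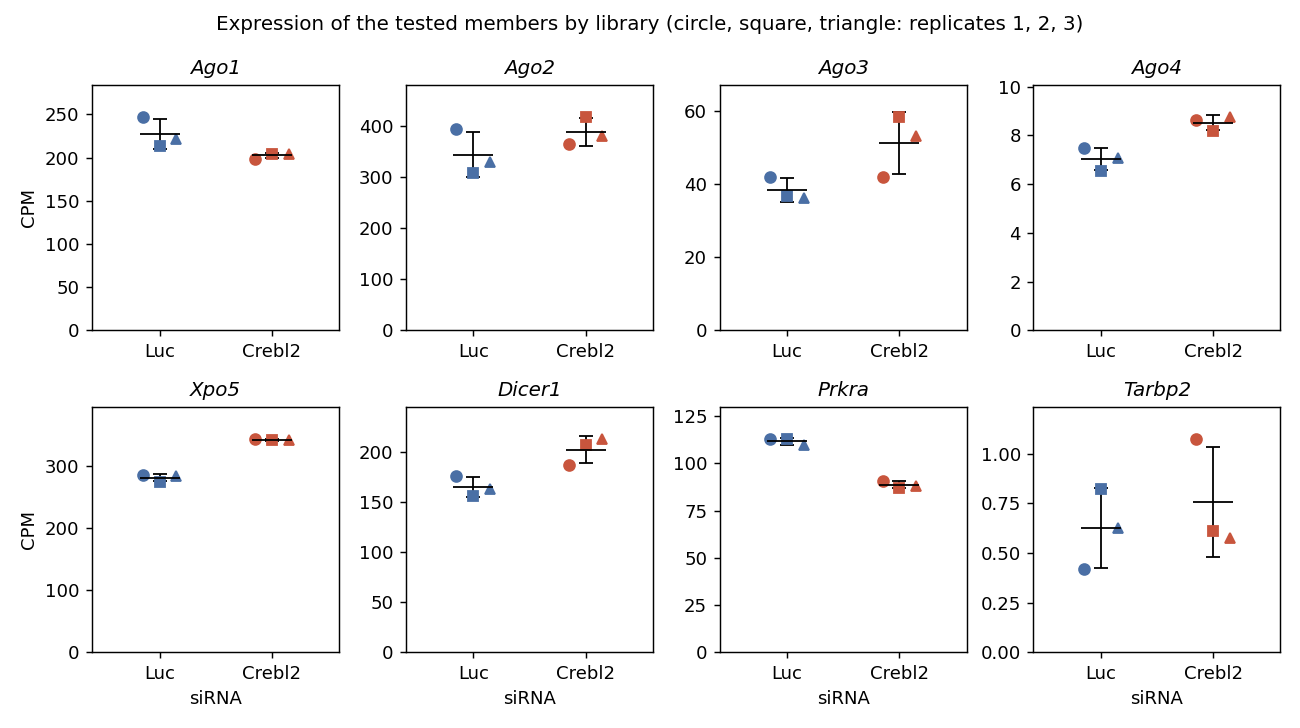
CPM (y axis from 0) of the 8 tested members in each library, with Luc siRNA in blue and Crebl2 siRNA in red; bars are the mean and SD of 3 libraries. Xpo5 and Prkra separate with little spread, while Ago2 and Ago3 overlap between the groups and Tarbp2 stays at or under 1.07 CPM.

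Among the Argonautes the group moved in both directions. Ago1 stood at 247, 214 and 221 CPM in the Luc siRNA libraries and 198, 204 and 204 CPM after Crebl2 siRNA. Each Crebl2 siRNA library lay below each control, with the highest control being replicate 1. Its mean went from 227 ± 17.4 to 202 ± 3.39 CPM (SD, n = 3 each), a change of -0.17 on the log2 scale (SE 0.0557, edgeR adjusted p = 0.0246). The call was lost with library size alone as the scaling (-0.12, adjusted p = 0.102) and without Luc siRNA replicate 1 (-0.11, 0.143). It was also lost without replicate 1 (-0.15, 0.0529) or 2 (-0.17, 0.0688) of Crebl2 siRNA.

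Ago2, the cleaving Argonaute, had the most counts of the 10. It stood at 395, 309 and 330 CPM in the Luc siRNA libraries and 365, 419 and 380 CPM after Crebl2 siRNA. Luc siRNA replicate 1 was above 2 of the 3 Crebl2 siRNA libraries, so the groups overlapped. The log2 fold change of 0.17 (SE 0.0745) was not called (edgeR adjusted p = 0.0792). It was called without Luc siRNA replicate 1 (0.28, adjusted p = 0.00233) or Crebl2 siRNA replicate 1 (0.22, 0.0284), with library size alone (0.22, 0.0319) and without a low count filter (0.17, 0.0123).

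Ago3, which shares the domain layout of Ago2, showed the largest fold change of the members called. It had 42.1, 36.9 and 36.2 CPM in the Luc siRNA libraries and 42.0, 58.5 and 53.4 CPM after Crebl2 siRNA. Crebl2 siRNA replicate 1 was just below the highest control, and the other 2 were above all controls. On the log2 scale the change was 0.42 (SE 0.0966, edgeR adjusted p = 0.00259), and 0.32 (adjusted p = 0.0219) without Crebl2 siRNA replicate 2, the library with the low mitochondrial share.

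Ago4 had the fewest reads of the 4, with 213, 183 and 192 counts in the Luc siRNA libraries and 241, 227 and 243 after Crebl2 siRNA. All 3 Crebl2 siRNA libraries exceeded the controls. Its mean went from 7.04 ± 0.457 to 8.52 ± 0.307 CPM (SD, n = 3 each), a change of 0.28 on the log2 scale (SE 0.102, edgeR adjusted p = 0.0413). Of the 6 calls this was made in the fewest settings, since DESeq2 (adjusted p = 0.088) and 7 other alternatives out of 14 did not make it. Among these 7 were the runs without Crebl2 siRNA replicate 1 (0.0745), 2 (0.0577) or 3 (0.0777) and without Luc siRNA replicate 2 (0.163) or 3 (0.0985).

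Ago3, Ago1 and Ago4 are neighbours on the minus strand of chromosome 4 in GRCm38, at 126331704 to 126429556, 126435012 to 126468583 and 126489541 to 126533472, and Ago2 lies apart on chromosome 15 (73095844 to 73184935). The gene in the middle of the cluster fell and its neighbours rose. The log2 ratio of Ago3 to Ago1 counts was -2.55, -2.54 and -2.61 in the Luc siRNA libraries and -2.24, -1.81 and -1.94 after Crebl2 siRNA. That is a difference of 0.572, at p = 0.1 in the exact two-sided permutation test, the smallest that 3 against 3 libraries allow (0.133 adjusted over 4 such tests). This ratio and that of Dicer1 to Prkra were chosen after their values were seen. The share of Ago2 among the counts of the 4 Argonautes went from 57.1, 54.5 and 55.6% to 59.5, 60.7 and 58.8%, with all 3 shares after Crebl2 siRNA above the controls (exact permutation p = 0.1, adjusted 0.133).

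Xpo5, the receptor that carries hairpin precursors out of the nucleus, rose with little spread within groups. It stood at 286, 275 and 284 CPM in the Luc siRNA libraries and 344, 343 and 342 CPM after Crebl2 siRNA. The gap between the groups was several times the range within either. On the log2 scale the change was 0.28 (SE 0.0452, edgeR adjusted p = 0.000108), and it was called in all 14 alternatives, at adjusted p values up to 0.00184. The gene lies on chromosome 17 (46202782 to 46243598, plus strand).

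Dicer1, the cytoplasmic nuclease, rose by a similar amount. Its levels were 175, 156 and 163 CPM in the Luc siRNA libraries and 187, 206 and 213 CPM after Crebl2 siRNA. The lowest Crebl2 siRNA library was above the highest control, Luc siRNA replicate 1. On the log2 scale the change was 0.29 (SE 0.0595, edgeR adjusted p = 0.000872), called in all 14 alternatives at values between 0.25 and 0.35. Dicer1 lies on the minus strand of chromosome 12 (104687742 to 104751952).

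Prkra, also known as PACT, is a double-stranded RNA-binding partner of Dicer1 and an activator of the kinase PKR. It went the other way, with 113, 113 and 110 CPM in the Luc siRNA libraries and 91.0, 87.2 and 88.1 CPM after Crebl2 siRNA. The groups were far apart and the libraries within each close together. On the log2 scale the change was -0.33 (SE 0.0502, edgeR adjusted p = 6.16e-05), with all 14 alternatives calling it between -0.35 and -0.28. Prkra lies on the minus strand of chromosome 2 (76629898 to 76648015).

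The ratio of Dicer1 to Prkra counts did not overlap between the groups. On the log2 scale it was 0.63, 0.46 and 0.57 in the Luc siRNA libraries and 1.04, 1.24 and 1.27 after Crebl2 siRNA, a difference of 0.628 (exact permutation p = 0.1, adjusted 0.133). This separation and its p were fixed by the values above, where Dicer1 rose and Prkra fell, each without overlap, and add no support. Tarbp2, also known as TRBP, the other partner of Dicer1 and an inhibitor of PKR, could barely be read. Its 2 mRNA rows have 449 unique bases, and it had 12, 23 and 17 counts in the Luc siRNA libraries and 30, 17 and 16 after Crebl2 siRNA. The ratio was 1.21 (95% exact binomial interval 0.827 to 1.79, counting error only), an interval that holds both a fall and a rise. Its fitted change of 0.28 on the log2 scale (SE 0.334, edgeR adjusted p = 0.553) turned to -0.06 without Crebl2 siRNA replicate 1. The log2 ratio of Tarbp2 to Prkra differed by 0.601 (exact permutation p = 0.3).

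**Figure D2:**
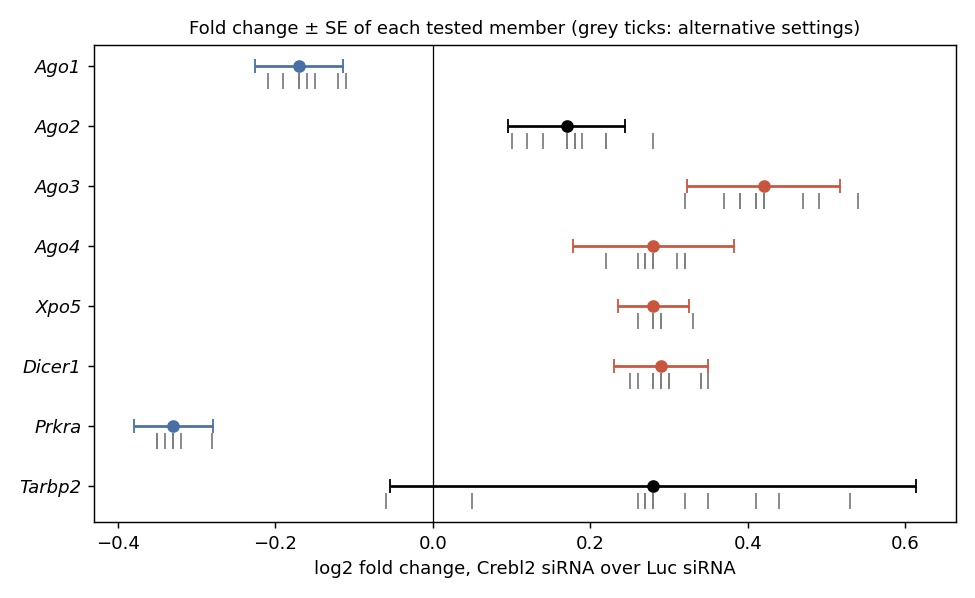
Log2 fold change of Crebl2 siRNA over Luc siRNA (x axis) for each tested member; points are the reported value with its SE, red for raised, blue for lowered and black for not called, and grey ticks are the alternative settings. Ticks of every member but Tarbp2 stay on 1 side of 0, and those of Tarbp2 fall on both sides. Only Xpo5, Dicer1, Ago3 and Prkra were called in all 14 alternatives.

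Luc siRNA replicate 1 stood above the other controls in the Argonautes and in Dicer1. Its CPM exceeded the mean of the other 2 controls by 0.30 in Ago2, 0.20 in Ago3 and 0.18 in Ago1 on the log2 scale. The excess was 0.14 in Dicer1, 0.13 in Ago4, 0.04 in Xpo5 and 0.02 in Prkra. The row of Xpo5 has 5081 bases and that of Prkra 1614. Over the 2064 tested genes whose main row has at least 5000 bases the median of the same difference was 0.082, and over the 3755 under 2000 bases it was -0.041. The median log2 fold change between the groups was 0.010 in the long class and 0.015 in the short class. The part of transcript length in the results was not tested.

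Levels of the 7 members counted on a whole mRNA were compared per kilobase of unique exon. In the Luc siRNA libraries Prkra was highest with 69.3 ± 1.17 CPM per kilobase (SD, n = 3), followed by Xpo5 (55.4 ± 1.17), Ago1 (31.4 ± 2.41), Ago2 (25.4 ± 3.29), Dicer1 (16.7 ± 1.01), Ago3 (2.46 ± 0.207) and Ago4 (1.08 ± 0.0699). Neighbours in this order did not overlap between libraries, although the lowest Ago1 value (29.6) was close to the highest Ago2 value (29.1). In the Crebl2 siRNA libraries the first places were exchanged, with Xpo5 at 67.5 ± 0.238 and Prkra at 55.0 ± 1.22. Ago1 (28.0 ± 0.469) and Ago2 (28.6 ± 2.02) then overlapped. Ago1 and Ago2 thus stood well above Ago3 and Ago4 in both groups on this scale. The scale assumes that the whole annotated mRNA is made: the annotated 3' UTR has 12742 bases in Ago3, 11064 in Ago2, 4491 in Ago1 and 3682 in Ago4, and whether shorter forms are in use was not tested.

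**Figure D3:**
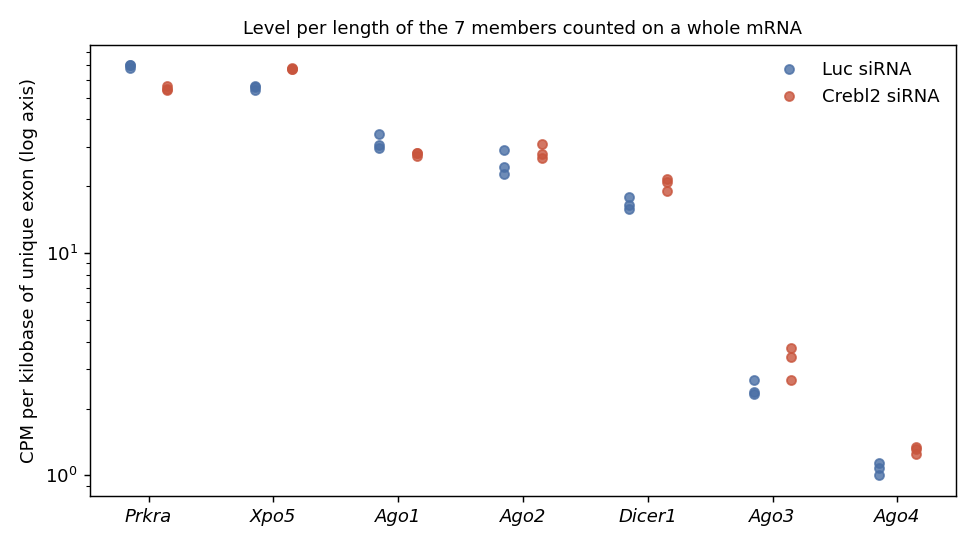
Level of the 7 members counted on a whole mRNA, in CPM per kilobase of unique exon on a log axis, with 1 point per library and the groups in colour. Prkra and Xpo5 exchange first place between the groups, and Ago3 and Ago4 lie below 4 in every library.

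Sequence features were read from the annotated 3' UTR of each member's counted mRNA. A 7-base word, GAAATGT, read on the transcript strand only, was found in 29.2% of the 2181 3' UTRs of lowered genes, in 16.5% of 5787 from genes not called and in 11.9% of 1890 from raised genes. The median 3' UTR lengths were 1385, 995 and 986.5 bases. The word has no stated source, and whether it was picked from these same genes is not recorded. It is given as a description and not as an independent test. Among the members it occurred in Ago1, Ago2 and Ago4, shown here with the word in capitals because these genes differ in direction:
Ago1, chr4:126435198-126435227, minus strand: gcatggatgggGAAATGTccctggagcccc
Ago2, chr15:73104419-73104448, minus strand: acttttaatatGAAATGTatccccagacca
Ago4, chr4:126491979-126492008, minus strand: caagacagcctGAAATGTgcttggtggctc
Ago4, chr4:126489829-126489858, minus strand: gtctactggctGAAATGTttgtgtttgttc

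Ago1, with 1 copy, was lowered, Ago2, with 1 copy, was not called, and Ago4, with 2 copies, was raised. Prkra, the other lowered member, had no copy in its 3' UTR of 513 bases, and neither had Ago3, Dicer1 or Xpo5. Whether the word goes with direction in members was not tested, and the calls of Ago1 and Ago4 were lost in several alternative settings. RefSeq promoter windows (GRCm38.p6, 250 bases before to 50 after the start) had entries for 9 of the 10 members, Ago2 being without one. The full cyclic AMP response element TGACGTCA was found in none of those 9 members, against 1.79% of 32851 windows. The shorter word TGACG, on either strand and contained in the full element, was in the windows of Ago3, Ago4, Drosha, Xpo5 and Tarbp2 and in 20.8% of all windows.

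Of the proteins that act beside the members, the GW182 genes Tnrc6a and Tnrc6b, the Argonaute partners that recruit deadenylases, both rose. They were the 2 tested of this list (100% called, against 38.9% of all genes tested), too few to read as a share. Tnrc6a went from 201 ± 9.51 to 221 ± 3.92 CPM (n = 3 each, SD; change on the log2 scale 0.14, edgeR adjusted p = 0.0343) and Tnrc6b from 179 ± 36.2 to 218 ± 22.9 CPM (0.29, 0.0355). The Tnrc6b groups overlapped and DESeq2 did not call it (adjusted p = 0.251). Both calls were lost without Crebl2 siRNA replicate 2, Luc siRNA replicate 2 or Luc siRNA replicate 3. That of Tnrc6a was also lost with no low count filter (0.0669) and with the replicate number as a block (0.0818). Tnrc6c, with 9 and 13 counts, was not tested.

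Of 26 deadenylation and decapping genes tested, 4 rose and 2 fell, with a median log2 fold change of 0.01. That is 23.1% called, against 38.9% of all genes tested. The antiproliferative deadenylase adaptors Tob1 (376 ± 8.46 to 240 ± 10.4 CPM, log2 fold change -0.65) and Btg2 (311 ± 9.74 to 209 ± 2.71 CPM, -0.57) fell most, both with an edgeR adjusted p of at most 9.82e-08. The decapping cofactor Dcp1a (0.30) and the poly(A) nuclease Pan2 (0.18) rose. None of the 8 tested CCR4-NOT subunits was called, with log2 fold changes from -0.21 in Cnot7 (SE 0.129) to 0.08 in Cnot10, which are named, after their values were seen, as the ends of the range. The scaffold Cnot1 has 22 unique bases and no counts.

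Partners of the nuclear step changed little. Of 18 tested Microprocessor cofactors 1 rose and 2 fell (16.7% called, against 38.9% of all genes tested), and the median was 0.05. The helicase Ddx5 went from 1060 ± 23.9 to 950 ± 40.2 CPM (n = 3 each, SD; change on the log2 scale -0.16, edgeR adjusted p = 0.0144), the hairpin loop binder Khsrp changed by -0.16 (0.0386) and Tardbp by 0.25 (0.00251). The Ddx5 and Khsrp calls were lost with library size alone and without Crebl2 siRNA replicate 2 or Luc siRNA replicate 3, and that of Khsrp also without Luc siRNA replicate 2 or Crebl2 siRNA replicate 3 and with the replicate block (0.0575). Among 6 tested export cofactors (16.7% called) the pore protein Ranbp2 rose (0.22, adjusted p = 0.0201). Its groups overlapped, and the call was lost without replicate 2 or 3 of either group.

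Genes that tail, trim or edit precursors were partly out of reach, since 6 of 15 were not tested, among them Adar, Tut4 and Dis3l2, all without counts on few unique bases. Of the 9 tested, 2 rose and 1 fell (33.3% called, against 38.9% of all genes tested). Trim71, a target of let-7 that binds Argonaute, rose from 6.01 ± 0.0814 to 8.55 ± 0.402 CPM (n = 3 each, SD; change on the log2 scale 0.51, edgeR adjusted p = 0.00088). The uridylyltransferase Tut7 changed by -0.16 (0.0154) and the exonuclease Pnpt1 by 0.16 (0.0451). The Tut7 call was lost with library size alone and without Luc siRNA replicate 1 or 3 or Crebl2 siRNA replicate 2, and the Pnpt1 call without any 1 of 5 libraries, the exception being Crebl2 siRNA replicate 1, and with the replicate block (0.084).

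Of 24 tested genes for Argonaute loading, partners and turnover, 3 rose and 3 fell (25% called, against 38.9% of all genes tested). The chaperone Hsp90ab1, which holds Argonaute open for loading, rose from 6743 ± 140 to 7689 ± 233 CPM (n = 3 each, SD; change on the log2 scale 0.19, edgeR adjusted p = 0.00324), and its co-chaperone Fkbp4 rose by 0.23 (0.00205). P4ha1, a subunit of the prolyl hydroxylase reported to modify Ago2 and a hypoxia response gene, fell from 13.2 ± 0.25 to 5.92 ± 0.461 CPM (-1.16, adjusted p = 1.16e-07). The LIM protein Ajuba, an Argonaute partner, fell by 0.23 on the log2 scale (adjusted p = 0.000649). Of the other tested chaperone and co-chaperone genes, named after their values were seen, Ptges3 fell (-0.30, edgeR adjusted p = 0.0413). DESeq2 did not call Ptges3 (adjusted p = 0.0867). Hsp90aa1, Hspa8, Stip1, Dnaja2 and Cdc37 were not called.

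Among 13 tested genes of other double-stranded RNA-binding proteins, a list that also holds RNA sensors, 5 rose and 1 fell. That is 46.2% called, against 38.9% of all genes tested. Nkrf (log2 fold change 0.39, edgeR adjusted p = 0.000837), Ilf2 (0.18, 0.00943) and Zfr (0.18, 0.0122) rose, the last 2 not called without Luc siRNA replicate 3, nor Zfr without Luc siRNA replicate 2. The sensor Ddx58, known as RIG-I, went from 218 ± 5.67 to 181 ± 2.2 CPM (-0.27, adjusted p = 0.000266). Of the other sensors, named after their values were seen, Dhx58 rose (0.34, edgeR adjusted p = 0.0131) and Ifih1 was not called (-0.14, 0.507). Eif2ak2, the kinase PKR to which Prkra and Tarbp2 bind, had a log2 fold change of 0.00 (adjusted p = 0.961) and is named for that binding, after its value was seen.

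**Figure D4:**
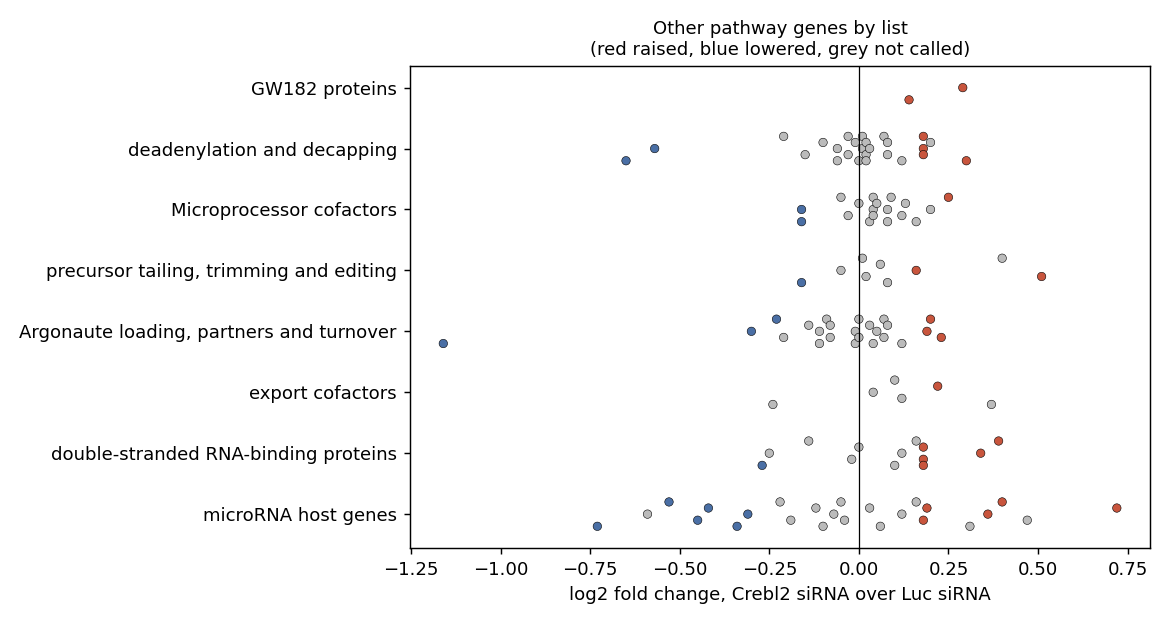
Log2 fold change of Crebl2 siRNA over Luc siRNA (x axis) for each tested gene of the 8 lists beside the members, 1 point per gene, red raised, blue lowered and grey not called; vertical offsets within a list only separate points. Most lists centre near 0, with P4ha1 at -1.16 the farthest point.

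Over the 8 lists together 23 genes rose and 15 fell of 123 tested, and 49 had too few counts. That is 30.9% called, against 38.9% of all genes tested. Leaving out Luc siRNA replicate 2 or 3 brought the number raised to 14 or 12. With library size alone 32 rose and 10 fell.

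Of 25 tested host genes of microRNAs 5 rose and 6 fell (44% called, against 38.9% of all genes tested). Host genes give RNAs from whose introns or exons the hairpins are cut, and the mature microRNAs were not measured. Mir22hg fell from 13.2 ± 1.09 to 7.98 ± 0.893 CPM (n = 3 each, SD; change on the log2 scale -0.73, edgeR adjusted p = 3.83e-05). Pank3, a pantothenate kinase, fell from 344 ± 33.4 to 251 ± 19.2 CPM (-0.45, 5.62e-05) and Copz2, a coatomer subunit, from 128 ± 4.1 to 95.6 ± 6.41 CPM (-0.42, 2.23e-05). Mcm7, a replicative helicase subunit, rose from 135 ± 7.55 to 173 ± 13.3 CPM (0.36, 0.000218). The mature microRNAs lying within these genes on the same strand in RefSeq (GRCm38.p6), taking the commonly described arm, are shown with the seed, bases 2 to 8, in capitals because the seed sets which mRNAs an Argonaute is led to:
miR-22-3p, in Mir22hg: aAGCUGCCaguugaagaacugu
miR-103-3p, in Pank3: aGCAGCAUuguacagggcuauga
miR-152-3p, in Copz2: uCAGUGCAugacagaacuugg
miR-106b-5p, in Mcm7: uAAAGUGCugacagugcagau
miR-93-5p, in Mcm7: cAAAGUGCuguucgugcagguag
miR-25-3p, in Mcm7: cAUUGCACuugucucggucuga

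miR-106b-5p and miR-93-5p share a seed. The 7 bases complementary to the miR-103-3p seed, ATGCTGC, occurred in the 3' UTRs of 6 tested members (Ago1, Ago2, Ago3, Ago4, Dicer1 and Tarbp2), and in those of 12.2% of tested genes with a 3' UTR. This microRNA was singled out after the values were seen, as one known to target Dicer1. Its site in Dicer1, in capitals, is shown as the member where such pairing is best known:
Dicer1, chr12:104690162-104690191, minus strand: ctgatgcttcatgtaATGCTGCacttaggt

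The complements of the seeds of miR-152-3p and miR-22-3p were in 5 and 3 tested members, and those of miR-106b-5p and miR-25-3p in 3 and 1. Among tested genes with a 3' UTR they were in 14.7%, 15.5%, 13.9% and 7.06%, in that order. Other called host genes also hold such microRNAs. The complement of the seed shared by miR-15b-5p and miR-16-5p, in Smc4, was in 6 tested members and in 23.6% of tested genes. Smc4 had 49 counts in Luc siRNA and 81 in Crebl2 siRNA libraries. Its rise (0.72, edgeR adjusted p = 0.0389) was not called by DESeq2 (0.14). This word, TGCTGCT, overlaps ATGCTGC, and in Ago2, Ago3, Ago4 and Tarbp2 the same stretch holds both. The complement of the seed of miR-26a-2-3p, in Ctdsp2, was in 5 tested members and in 15.7% of tested genes. For miR-26a-5p, the other arm of the same hairpin, it was in 2 tested members and in 10.7% of tested genes. miR-26a-5p also lies in Ctdspl, which fell (log2 fold change -0.34). The median 3' UTR was 3682 bases in members and 1071 bases in all genes tested, and longer sequence holds any word more often. These matches are a description of letters. Of the called members, the raised Ago3, Ago4 and Dicer1 and the lowered Ago1 hold the miR-103-3p word. The raised Xpo5 and the lowered Prkra do not. Whether the word goes with direction was not tested.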

How the data were processed

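Total RNA libraries, made with a stranded kit per the labels' protocols, gave 6 files of raw read counts per Ensembl transcript, deposited by the authors without normalisation. Per the submitters' processing notes, Trim Galore, TopHat and HTSeq were used, with the builds mm9 and GRCm38, and no role or version is recorded. The counter's strand setting was not given in the sources used here.

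Among 58611 rows, 58264 matched GENCODE M21 (GRCm38) and the 347 others, with at most 0.0497% of a library, stayed as unnamed features. The 9603 rows without a unique exonic base had 0.0235% of counts. Rows were summed per gene and tested with edgeR 4.0.16 (quasi-likelihood, two-sided, TMM, filterByExpr, Benjamini-Hochberg over 11616 genes) under R 4.3.3. Each SE came from the fold change and its statistic. CPM used TMM-scaled library sizes. The procedure was tested on simulated counts. The planned ratios of Drosha to Dgcr8 and Dicer1 to Drosha could not be computed, for want of counts, so 2 planned and 2 added permutation tests were run.

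Members, lists and tests were chosen with earlier results of these data known. Named genes are the 10 members, Crebl2 and, per list, up to 4 called genes with the smallest p. Alternatives were DESeq2 1.42.0, limma-voom (limma 3.58.1), other scalings and filters, single rows, a replicate block and leaving out each library. No list was tested as a set.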

Additional observations from a re-analysis of the deposited data

How the results depend on the processing

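In the 14 alternative settings Ago3 (log2 fold change 0.32 to 0.54), Dicer1, Xpo5 and Prkra kept their direction and call. Between 3 and 5 members were raised and 1 or 2 lowered. A single lowered member, also among transcript rows, came with library size alone (1) and the replicate block (1), and when libraries were left out singly (1 to 2). Ago1 was not called with library size alone (-0.12) or the replicate block (-0.17), and ran from -0.21 to -0.11 without single libraries. Ago2 was called with library size alone (0.22) and no low count filter (0.17), and ran from 0.10 to 0.28 without single libraries. Ago4 was not called by DESeq2 (0.28), with the replicate block (0.28) or with no filter (0.27), and ran from 0.22 to 0.32. Tarbp2 turned to -0.06 without Crebl2 siRNA replicate 1 and otherwise reached 0.53. Pathway genes raised ran from 12 to 22 without single libraries, against 23, and came to 32, with 10 lowered against 15, with library size alone. The exact tests changed sign nowhere.

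Replicate numbers are shared by the groups, but same-numbered libraries did not deviate together (correlations -0.133, -0.0443 and -0.0847), so the replicate block shows a shared number rather than a pairing. Of the 25 named pathway genes 16, 8 of them lowered, were called in every alternative. Library size alone shifts log2 fold changes by 0.049. Tarbp2, Drosha and Dgcr8 are limited by their low counts, whose cause was not tested.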
